A study of Homo sapiens with 6 samples.

Results

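SRC substrates and phosphotyrosine adaptors are the proteins that SRC family kinases act on and through. The 10 genes described here are BCAR1, NEDD9, CTTN, PTK2, PTK2B, PAG1, CBL, SHC1, GAB1 and CTNND1, taken by name out of 58219 gene identifiers in the count files. All 10 passed the filter on low counts, among 14723 genes that did. The RNA came from SNU-449, a human cell line established from a hepatocellular carcinoma. A group of 3 libraries came from cells stably expressing Yes T348I, a form of the SRC family kinase Yes altered at its gatekeeper residue. The other 3 came from cells stably expressing wild-type Yes (Yes WT). Both lines were given 100 nM dasatinib, which inhibits ABL and the SRC family, and untreated cells were not analysed here. Whether a line is a clone or a pool is not in the labels, nor whether its libraries came from separate cultures, so the spread behind each p-value may be technical.

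SRC family kinases add phosphate to tyrosines in docking proteins, and proteins with SH2 or PTB domains then bind these sites. At focal adhesions, focal adhesion kinase binds SRC and the pair phosphorylates scaffolds of the CAS family, which recruit CRK adaptors and feed cell movement. At receptors, SHC1 and GAB1 link phosphotyrosine to the RAS and PI3 kinase pathways, and CBL attaches ubiquitin to activated receptors and kinases. The counts measure transcripts of these genes, not phosphorylation or protein.

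The libraries held 14360137 to 19608763 counts over genes. YES1 had 382, 411 and 435 CPM (counts scaled to library size) in Yes T348I and 357, 368 and 367 CPM in Yes WT, without overlap. The YES1 log2 fold change was 0.17 (SE 0.04, edgeR adjusted p = 9.94e-05), called higher. That call was lost only against a minimum change of 1.2-fold. These counts may hold native and introduced transcripts alike. Mitochondrial transcripts took 7.29% to 9.0% of counts in Yes T348I and 9.73% to 10.8% in Yes WT. Uniquely mapped reads assigned to no gene made up 6.37% to 6.86% in Yes T348I and 7.40% to 7.87% in Yes WT. Genes detected numbered 22619 to 23694 in Yes T348I and 23437 to 23802 in Yes WT. The part of these differences in the results, also for genes of low level, was not tested. Of 12 hepatocyte markers, 6 were too low to test, ALB and HNF4A among them. The list summed to 107 to 112 CPM in Yes T348I and 143 to 146 CPM in Yes WT. FGB averaged 52.3 CPM in Yes T348I and 60.5 CPM in Yes WT, and CPS1 46.5 and 53.4 CPM. Of the 6 tested, 4 were called lower and 0 higher, where 27.3% of all genes tested were lower. FGA, TF, FGB and CPS1 were at 0.286, 0.386, 0.864 and 0.872 of their Yes WT levels. Of 6 epithelial markers, 5 were tested, and the list summed to 977 to 1098 CPM in Yes T348I and 721 to 759 CPM in Yes WT. KRT7 averaged 603 ± 40.7 CPM in Yes T348I and 309.9 ± 11.8 CPM in Yes WT (higher, edgeR adjusted p = 2.34e-24), and CDH1 averaged 1.47 ± 0.298 CPM in Yes T348I and 3.35 ± 0.518 CPM in Yes WT (lower, edgeR adjusted p = 8.47e-06; SD, n = 3 each). KRT8, KRT18 and KRT19 were not called. Of 4 mesenchymal markers, 3 were higher and 1, FN1, was lower, where 28.0% of all genes tested were higher. VIM, SPARC and CDH2 were 1.08, 1.13 and 1.48 times their Yes WT levels, and FN1 was at 0.764. The list summed to 7482 to 7821 CPM in Yes T348I and 7208 to 7250 CPM in Yes WT. Of leukocyte, endothelial and stellate or fibroblast markers, 1 of 7, 1 of 5 and 2 of 6 could be tested. The leukocyte list summed to 0.635 to 1.33 CPM in Yes T348I and 2.42 to 3.08 CPM in Yes WT, and the endothelial list to 0.480 to 0.564 CPM in Yes T348I and 1.14 to 1.53 CPM in Yes WT, with CD3E and TEK at 0 throughout. The stellate and fibroblast list summed to 145 to 156 CPM in Yes T348I and 133 to 147 CPM in Yes WT, nearly all of it RGS5. The part of these markers in the results was not tested.

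At an adjusted p below 0.05 (edgeR), 2 of the 10 genes were higher in Yes T348I and 4 were lower. NEDD9 rose 1.40-fold. GAB1 fell to 0.706 and PTK2B to 0.696 of their Yes WT levels. SHC1, CBL and BCAR1 changed by less than 1.2-fold, and CTTN, PTK2, PAG1 and CTNND1 did not pass the test. Over all genes tested, 55.3% were called, 28.0% higher and 27.3% lower, so 6 called of 10 is a share near that background. The median log2 fold change was -0.02 for the 10 genes and -0.01 for all genes tested, and the median size of the log2 fold change regardless of sign was 0.10 for the 10 genes and 0.23 for all. In 6 of the 10 genes the libraries of the groups did not overlap, against 59.5% of all genes tested. In bulk RNA, fewer cells with a transcript and less of it per cell cannot be told apart.

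**Figure D1:**
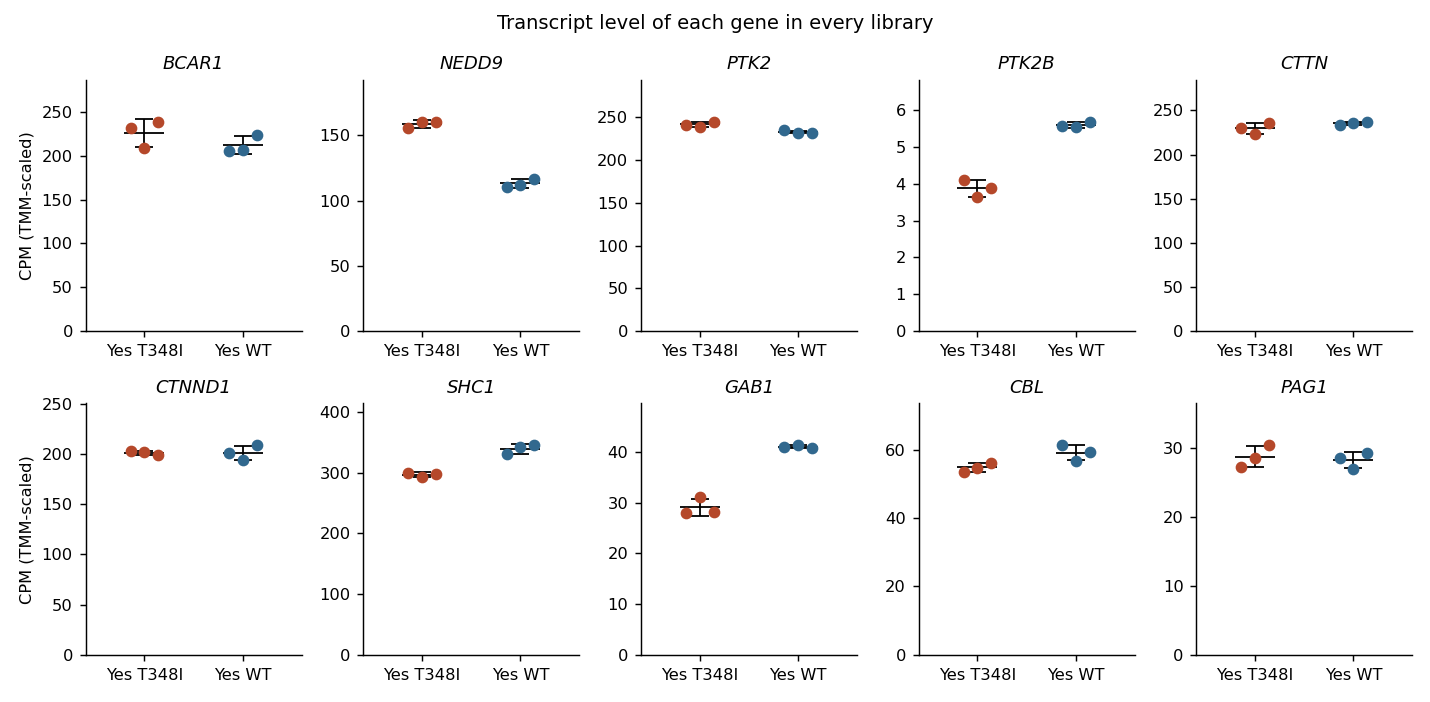
Transcript level in TMM-scaled CPM (y axis, from 0) of the 10 genes in each of 3 Yes T348I (left) and 3 Yes WT (right) libraries, with mean and SD. NEDD9 is higher and GAB1 and PTK2B are lower in Yes T348I by more than the spread of the points, while BCAR1, CTTN, CTNND1 and PAG1 overlap.

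The CAS scaffolds BCAR1 and NEDD9 carry many tyrosines that SRC family kinases phosphorylate. NEDD9 (ENSG00000111859.16, GRCh38 chromosome 6, 11183298 to 11382348, minus strand) had 156, 161 and 160.3 CPM in Yes T348I and 111, 112 and 117 CPM in Yes WT. Every Yes T348I library was above every Yes WT library. Its log2 fold change was 0.49 (SE 0.04, 95% interval 0.41 to 0.56, edgeR adjusted p = 9.43e-15), and it stayed past the threshold under all 16 alternatives tried.

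BCAR1, which encodes p130CAS (ENSG00000050820.16, chromosome 16, 75228187 to 75268053, minus strand), had 231, 209 and 239 CPM in Yes T348I and 206, 207 and 224 CPM in Yes WT. The groups overlapped, since Yes T348I replicate 2 lay below Yes WT replicate 3. Its log2 fold change was 0.09 (SE 0.04, 95% interval 0.01 to 0.17, edgeR adjusted p = 0.040). The call was lost without Yes T348I replicate 1 (edgeR adjusted p = 0.060) or 3 (0.24) and without Yes WT replicate 1 (0.19) or 2 (0.15), and without Yes T348I replicate 2 the log2 fold change was 0.15. It also ended under upper quartile factors, library size only, a filter of 1 CPM and the DESeq2 test. Of its annotated exon bases, 8.59% are shared with AC009078.3 on the same strand, and reads that fit both were not counted.

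Scaling cancels in the ratio of the NEDD9 count to the BCAR1 count of a library. That ratio was 0.673, 0.770 and 0.671 in Yes T348I and 0.539, 0.540 and 0.523 in Yes WT, a mean 1.32 times as high in Yes T348I. All 3 Yes T348I libraries lay above all 3 Yes WT libraries (two-sided exact permutation p = 0.10, the smallest that 3 against 3 allows). The ratio re-expresses the changes of NEDD9 and BCAR1 given above and is not a separate result. Per kilobase of exon, BCAR1 remained the more abundant of the pair in both lines, at 24.6 ± 1.71 CPM per kilobase in Yes T348I and 23.1 ± 1.10 in Yes WT, while NEDD9 was at 15.3 ± 0.272 in Yes T348I and 10.9 ± 0.320 in Yes WT (SD, n = 3 each).

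The sequences just upstream of starts of NEDD9, BCAR1 and SHC1 are shown because NEDD9 rose, BCAR1 is its closest relative among the members and SHC1 fell, and because these are the 3 of the 10 genes found in the RefSeq promoter table (GRCh38.p14). Each reads 5′ to 3′ on the minus strand of its gene, leaves out bases that GENCODE 29 places in an exon of the gene, and has matches to the AP-1 motif TGANTCA in capitals. The NEDD9 stretch is chr6:11382349-11382598 and lies before the most upstream of 3 RefSeq starts.
NEDD9: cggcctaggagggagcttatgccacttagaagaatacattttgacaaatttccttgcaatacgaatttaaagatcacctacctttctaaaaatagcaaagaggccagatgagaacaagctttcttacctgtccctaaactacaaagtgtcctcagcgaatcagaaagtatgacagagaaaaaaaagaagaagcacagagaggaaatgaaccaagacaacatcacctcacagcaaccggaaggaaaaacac
The BCAR1 stretch is chr16:75268054-75268257, before the most upstream of 5 RefSeq starts.
BCAR1: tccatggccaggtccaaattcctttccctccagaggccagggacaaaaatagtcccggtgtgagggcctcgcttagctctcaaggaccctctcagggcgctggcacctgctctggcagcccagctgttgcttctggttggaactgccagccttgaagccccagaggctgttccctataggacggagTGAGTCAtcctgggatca
The SHC1 stretch is chr1:154970748-154970997 and lies before a start inside the gene. Of the 2 RefSeq starts of SHC1, this one was printed because its window held an AP-1 match. The match in this stretch was therefore fixed by that choice.
SHC1: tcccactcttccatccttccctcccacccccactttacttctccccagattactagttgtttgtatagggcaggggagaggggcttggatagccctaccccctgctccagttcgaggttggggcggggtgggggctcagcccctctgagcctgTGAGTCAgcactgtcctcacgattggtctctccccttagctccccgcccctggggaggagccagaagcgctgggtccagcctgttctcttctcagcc
G and C made up 40.4% of the NEDD9 stretch, 58.8% of the BCAR1 stretch and 61.6% of the SHC1 stretch. On either strand, the AP-1 motif occurred once in BCAR1, from 64 bases before its start, and once in SHC1, from 97 bases before its start. Across the 10 windows of 300 bases that these 3 genes have in the table, neither the TEAD core GGAATG nor the SRF CArG box was found. Of all 35116 such windows, 7.71% held the AP-1 motif, 14% the TEAD core and 1.29% the CArG box. A match describes letters in the window only, and the gene counts do not show which start was used.

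Of the focal adhesion kinases, PTK2 (FAK) was abundant and close to level, and PTK2B (PYK2), which answers to calcium signals, was low and lower still in Yes T348I. PTK2 (chromosome 8, 140657900 to 141002216) had 241, 239 and 245 CPM in Yes T348I and 234, 231 and 232 CPM in Yes WT. Although no library of one group reached the other, the log2 fold change of 0.05 (SE 0.03, 95% interval -0.01 to 0.12, edgeR adjusted p = 0.15) did not pass the test. PTK2B (chromosome 8, 27311482 to 27459391) had 4.10, 3.63 and 3.88 CPM in Yes T348I and 5.56, 5.54 and 5.68 CPM in Yes WT. These levels rest on 53 to 91 counts a library, and the groups did not overlap. The log2 fold change was -0.52 (SE 0.14, 95% interval -0.80 to -0.24, edgeR adjusted p = 0.0016), which is past the threshold under all 16 alternatives. Per kilobase of exon, PTK2B made up 2.86%, 2.57% and 2.67% of the summed level of the pair in Yes T348I and 3.95%, 3.98% and 4.08% in Yes WT.

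CTTN encodes cortactin, an actin-binding substrate of SRC at the cell edge, and CTNND1 encodes p120 catenin, a SRC substrate that holds cadherins at the membrane. Neither changed past the threshold. CTTN (chromosome 11, 70398404 to 70436584) had 229.5, 223 and 236 CPM in Yes T348I and 234, 235 and 237 CPM in Yes WT, a log2 fold change of -0.04 (95% interval -0.10 to 0.03, edgeR adjusted p = 0.37). It passed the threshold only under upper quartile factors, at a log2 fold change of -0.08 (edgeR adjusted p = 0.045). CTNND1 (chromosome 11, 57753243 to 57819546) had 203, 202 and 199 CPM in Yes T348I and 201, 194 and 209 CPM in Yes WT. Its log2 fold change of -0.00071 had a 95% interval of -0.07 to 0.07, or 0.952 to 1.05 as a fold (edgeR adjusted p = 0.99). Of its exon bases, 4.64% are shared with other genes of its strand, among them the readthrough TMX2-CTNND1.

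**Figure D2:**
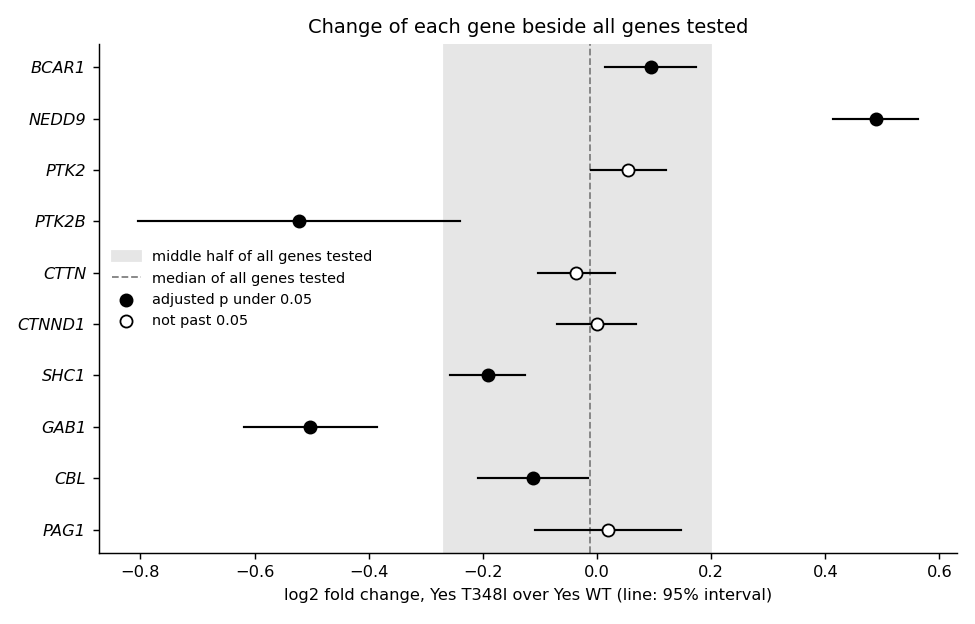
Log2 fold change of each of the 10 genes, Yes T348I over Yes WT (x axis), with 95% intervals from the edgeR fit and filled points where the adjusted p is under 0.05. NEDD9 at 0.49 and GAB1 and PTK2B at -0.50 and -0.52 lie outside the grey band from -0.27 to 0.20, which runs from the lower to the upper quartile of all genes tested, and the other 7 lie inside it.

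Both SHC1 and GAB1 were called lower. SHC1, which couples receptors to GRB2 and RAS (ENSG00000160691.18, chromosome 1, 154962298 to 154974395), had 299.9, 292 and 297 CPM in Yes T348I and 330.0, 342 and 345 CPM in Yes WT. The groups did not overlap, and the log2 fold change was -0.19 (SE 0.03, 95% interval -0.26 to -0.13, edgeR adjusted p = 2.45e-06). Against a minimum change of 1.2-fold it did not pass. PYGO2 on the same strand shares 7.72% of its exon bases.

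GAB1, a docking protein for PI3 kinase and the phosphatase SHP2 (ENSG00000109458.8, chromosome 4, 143336762 to 143474568), had 28.0, 31.1 and 28.1 CPM in Yes T348I and 41.1, 41.3 and 40.9 CPM in Yes WT. The highest Yes T348I library lay well below the lowest Yes WT library. The log2 fold change was -0.50 (SE 0.06, 95% interval -0.62 to -0.39, edgeR adjusted p = 7.84e-10), and it was past the threshold under all 16 alternatives. The count ratio of NEDD9 to GAB1 was 5.56, 5.17 and 5.70 in Yes T348I and 2.70, 2.70 and 2.86 in Yes WT, 1.99 times as high in Yes T348I. This ratio combines the changes of both genes given above and is not a separate result.

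The members that restrain signalling changed little. CBL, a ubiquitin ligase (ENSG00000110395.6, chromosome 11, 119206276 to 119313926), had 53.6, 54.7 and 56.2 CPM in Yes T348I and 61.2, 56.7 and 59.4 CPM in Yes WT. The groups lay side by side without overlap. The log2 fold change of -0.11 (SE 0.05, 95% interval -0.21 to -0.02, edgeR adjusted p = 0.043) was just past the threshold. The call was lost without Yes T348I replicate 1 (adjusted p = 0.16), 2 (0.068) or 3 (0.064) and without Yes WT replicate 1 (0.20) or 3 (0.11), and also with no low-count filter, with the unstranded counts and with the DESeq2 test. PAG1, a membrane adaptor that brings the SRC inhibitor kinase CSK to the membrane (chromosome 8, 80967810 to 81112068), had 27.2, 28.5 and 30.3 CPM in Yes T348I and 28.5, 26.9 and 29.2 CPM in Yes WT. The groups overlapped, and its log2 fold change was 0.02 (95% interval -0.11 to 0.15, edgeR adjusted p = 0.82).

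Levels can be set against each other only per length. Averaged over the 6 libraries, the order was SHC1 at 73.2 CPM per kilobase of exon, CTTN at 33.5, BCAR1 at 23.9, CTNND1 at 22.9, PTK2 at 17.2, NEDD9 at 13.1, CBL at 4.85, GAB1 at 3.47, PAG1 at 2.58 and PTK2B at 0.597. The libraries of BCAR1 and CTNND1 overlapped in this order, and no other neighbours did. The median over 14691 tested genes with a known length was 4.73 CPM per kilobase. SHC1 was higher than 96.9% of those genes, and PTK2B was higher than 12.2%. Lengths are of all annotated exons joined, which understates a gene whose exons are used in part.

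Of 14 paralogs of the 10 genes, 7 passed the filter on low counts. Of these 7, 1 rose and 5 fell, where 28.0% of all genes tested rose and 27.3% fell, with a median log2 fold change of -0.72 beside -0.01 for all genes tested. The other 7 reached no more than 14 counts in a library, and EFS and GAB4 were listed at 0 throughout. The tested paralogs that fell most, SHC2, SHC4, ARVCF and CBLB, were low. They averaged 2.51 to 6.59 CPM in Yes T348I and 4.10 to 12.7 CPM in Yes WT. The more abundant SHC3, GAB2 and PKP4 had log2 fold changes of 0.02, -0.18 and 0.58. Among all genes, 472 were called lower and 129 higher with at least 2-fold. Whether level bears on the median of the paralogs was not tested. CBLB, a second CBL ubiquitin ligase, had 6.92, 6.93 and 5.92 CPM in Yes T348I and 12.7, 13.6 and 11.8 CPM in Yes WT. CBLB had a log2 fold change of -0.94 with an SE of 0.10 (edgeR adjusted p = 3.20e-10). Its level was thus 0.521 of that in Yes WT. The share of CBL in the summed per-kilobase level of its family was 89.0%, 89.2% and 90.8% in Yes T348I and 82.9%, 81.3% and 84.0% in Yes WT.

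Among SHC paralogs, SHC2 averaged 3.27 ± 0.303 CPM in Yes T348I and 7.77 ± 1.68 CPM in Yes WT (SD, n = 3 each). This was a log2 fold change of -1.24 with an SE of 0.15 (edgeR adjusted p = 3.00e-09). SHC4 fell by 0.72 log2 units (SE 0.17, adjusted p = 3.85e-04), at 2.51 CPM in Yes T348I and 4.10 CPM in Yes WT. SHC3 did not pass, at 55.4 ± 2.22 CPM in Yes T348I and 54.7 ± 0.795 CPM in Yes WT (log2 fold change 0.02, adjusted p = 0.79). SHC1 made up much the same share of the family in both lines, 91.0% ± 0.332 in Yes T348I and 90.6% ± 0.316 in Yes WT (SD, n = 3 each), and its libraries overlapped.

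GAB2, a second GAB docking protein, was also called lower. It averaged 22.4 ± 1.08 CPM in Yes T348I and 25.3 ± 2.27 CPM in Yes WT (SD, n = 3 each). In GAB2 the log2 fold change was -0.18 with an SE of 0.07 (edgeR adjusted p = 0.032). The call was lost without Yes T348I replicate 1 (log2 fold change -0.12, adjusted p = 0.18) or Yes WT replicate 3 (-0.10, adjusted p = 0.30). It was also lost with no low-count filter (adjusted p = 0.12), with the DESeq2 test (0.13) and against a minimum change of 1.2-fold. GAB1 made up 46.0%, 46.8% and 44.3% of the family's per-kilobase level in Yes T348I and 52.9%, 52.3% and 48.6% in Yes WT. The summed level of the family was 6.29 ± 0.271 CPM per kilobase in Yes T348I and 7.93 ± 0.334 in Yes WT (SD, n = 3 each), without overlap.

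PKP4, a p120 catenin relative of cell junctions, was the paralog that rose. It had 163, 162 and 167 CPM in Yes T348I and 108, 110.0 and 112 CPM in Yes WT. For PKP4 the log2 fold change was 0.58 with an SE of 0.04 (edgeR adjusted p = 2.55e-17). ARVCF, another relative, fell by 0.73 log2 units (SE 0.12, adjusted p = 1.66e-06), at 5.76 CPM in Yes T348I and 9.66 CPM in Yes WT. The share of CTNND1 in the family was 55.8%, 56.1% and 54.9% in Yes T348I and 63.4%, 62.7% and 63.9% in Yes WT. The share of PKP4 was 41.9% ± 0.671 in Yes T348I and 31.9% ± 0.768 in Yes WT (SD, n = 3 each).

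Of these family shares, those without overlap between the groups have a two-sided exact permutation p of 0.10, the smallest that 3 against 3 allows, so none could pass 0.05. NEDD9 took 38.3% ± 1.84 of the CAS family in Yes T348I and 32.0% ± 0.425 in Yes WT, and BCAR1 took nearly all the rest (SD, n = 3 each). The NEDD9 share therefore largely restates the NEDD9 to BCAR1 ratio above. CASS4, with 4 to 10 counts a library, was at most 0.369% in each. The summed level of the CAS family was 40.1 ± 1.64 CPM per kilobase in Yes T348I and 34.1 ± 1.46 in Yes WT, without overlap.

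Adaptors that read phosphotyrosine through SH2 or PTB domains split. Of 31 listed, 22 were tested, 4 rose and 7 fell, with a median log2 fold change of -0.02, and the 11 called of 22 were near the background of 55.3%. The 4 that rose were CRK, CRKL, BCAR3 and SHB. CRK, which binds phosphorylated CAS proteins, averaged 117 ± 3.18 CPM in Yes T348I and 93.9 ± 3.75 CPM in Yes WT (SD, n = 3 each). Its log2 fold change was 0.31 with an SE of 0.04 (edgeR adjusted p = 9.92e-09). Its relative CRKL rose by 0.18 (SE 0.04, adjusted p = 3.96e-04), and BCAR3, a binding partner of CAS proteins, rose by 0.29 (SE 0.04, adjusted p = 3.59e-09). SHB rose by 0.19 (SE 0.07, adjusted p = 0.016), but its call was lost without Yes T348I replicate 2 (adjusted p = 0.054) or Yes WT replicate 2 (0.11), with the DESeq2 test (0.069), under upper quartile scaling (0.058) and when scaled by library size alone (0.056). Against a minimum change of 1.2-fold, none of the 4 passed, while 6 of the 7 that fell did. By that test, 1394 of all 14723 genes tested were higher and 1835 were lower.

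Of the 7 that fell, DOK4, a docking protein with a PTB domain, averaged 3.69 ± 0.236 CPM in Yes T348I and 9.81 ± 1.37 CPM in Yes WT (SD, n = 3 each). For DOK4 the log2 fold change was -1.41 with an SE of 0.13 (edgeR adjusted p = 2.68e-12). GRB7 fell by 0.98 log2 units (SE 0.08, adjusted p = 1.39e-13), and SH2B3, an inhibitor of cytokine receptor signalling, by 0.60 (SE 0.04, adjusted p = 2.03e-15). The insulin receptor substrate IRS2 fell by 0.37 (SE 0.04, adjusted p = 7.36e-11). GRB2, the partner of SHC1, had 240.1, 237 and 231 CPM in Yes T348I and 223, 222 and 229 CPM in Yes WT (log2 fold change 0.07, adjusted p = 0.067), and was chosen for its binding to SHC1 after its values were seen.

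Other SRC substrates, many of focal adhesions, were called in 71.8% of those tested, beside 55.3% of all genes. The list was chosen with earlier results of these data known, and whether level bears on that share was not tested. Of 41 listed, 39 were tested, 18 rose and 10 fell, with a median log2 fold change of 0.08. AFAP1, an actin filament protein that binds SRC, averaged 131 ± 2.45 CPM in Yes T348I and 83.2 ± 1.17 CPM in Yes WT (SD, n = 3 each). AFAP1 had a log2 fold change of 0.66 with an SE of 0.04 (edgeR adjusted p = 3.66e-18). EZR, which encodes the membrane linker ezrin, rose by 0.53 (SE 0.03, adjusted p = 5.89e-18), and CAV1 and ACTN1 rose by 0.79 and 0.51. The largest fall was in SH3PXD2A, which encodes the invadopodium scaffold TKS5, at 9.32 ± 0.729 CPM in Yes T348I and 31.0 ± 1.74 CPM in Yes WT (SD, n = 3 each). The log2 fold change was -1.72 with an SE of 0.08 (edgeR adjusted p = 8.82e-22). Its relative SH3PXD2B fell by 0.58 log2 units (SE 0.05, adjusted p = 2.45e-12), TNS2 (tensin) by 0.93 (SE 0.06, adjusted p = 2.15e-16) and PLCG1, a phospholipase, by 0.30 (SE 0.03, adjusted p = 7.32e-10). Against a minimum change of 1.2-fold, 10 of the 39 rose and 5 fell. Of all 14723 genes tested, 1394 rose and 1835 fell by that test.

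Among 8 tested regulators of SRC at the membrane, 1 rose and 4 fell, a share called of 62.5% beside 55.3% of all genes tested. The phosphatase gene PTPN1 rose by 0.41 log2 units (SE 0.04, edgeR adjusted p = 4.99e-13). It averaged 215 ± 3.89 CPM in Yes T348I and 162 ± 7.13 CPM in Yes WT (SD, n = 3 each). The receptor phosphatase genes PTPRJ, PTPRA and PTPRG fell by 0.43 (SE 0.05), 0.17 (SE 0.04) and 0.18 (SE 0.05) log2 units. PTPRE was called lower at -1.04 (SE 0.35, adjusted p = 0.012), from levels of 0.536 CPM in Yes T348I and 1.10 CPM in Yes WT, and the call was lost without Yes WT replicate 1 (-0.65, adjusted p = 0.19) and with the DESeq2 test (adjusted p = 0.074). CSK, the kinase that PAG1 recruits, had 46.0, 45.2 and 44.3 CPM in Yes T348I and 46.1, 40.8 and 43.3 CPM in Yes WT (log2 fold change 0.06, adjusted p = 0.39), and was likewise chosen after its values were seen.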

How the data were processed

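Polyadenylated RNA was sequenced with a stranded kit, per the labels, in 3 Yes T348I and 3 Yes WT libraries. The authors deposited raw counts of reads per Ensembl gene in unstranded, forward and reverse columns. Per the submitters' processing notes, STAR 2.5.1b, Trimmomatic 0.35, CASAVA 1.8.2 and the build GRCh38 were used. The annotation release is not stated. Reverse-strand counts were analysed, as the forward column held 6.13% to 6.59% of its total. The 4 summary lines stayed out of sizes and tests, and reads that fit more than 1 gene were 3.11% to 3.15% of uniquely mapped reads.

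Of 58219 identifiers, 41844 had a symbol in a table of gene names and 57881 were found in GENCODE 29, which gave positions and exon lengths. The test was run in edgeR 4.0.16 under R 4.3.3 (filterByExpr with a minimum count of 10, TMM, quasi-likelihood F-test of Yes T348I against Yes WT, no covariate), with Benjamini-Hochberg adjustment across the 14723 genes kept and calls at an adjusted p under 0.05. SE and 95% intervals of the log2 fold change come from that F statistic and its degrees of freedom. The test was also run on simulated counts in which 200 genes were changed. In the data 8147 genes were called, so the simulation does not cover scaling or calls where so many genes differ. CPM values are TMM-scaled.

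The members, lists and rules were chosen with earlier results of these data known. The text names all 10 members, YES1, tested paralogs and, in each other list, up to 4 called genes a direction with the lowest adjusted p. Alternatives were other scalings, filters, tests (DESeq2 1.42.0, limma 3.58.1), the unstranded counts, a replicate block, a minimum change and leaving out each library. The list counts, list genes and family shares were added to them after the data were seen.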

Additional observations from a re-analysis of the deposited data

How the results depend on the processing

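The 10 genes gave 160 log2 fold changes under the 16 alternatives. Of these, 127 kept their direction and side of 0.05, 20 were no longer past it, 1 newly was and 12 changed sign, all of them in PAG1 or CTNND1, which were not called under any of them. The 29 other named genes gave 463 values, of which 440 were unchanged in direction and call, 20 lost the call and 3, all of SHC3, changed sign (-0.024 under upper quartile scaling, -0.021 when scaled by library size alone, and -0.0063 to 0.054 without 1 library at a time).

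With upper quartile factors, library size only, a filter of 1 CPM or the DESeq2 test, 1 of the 10 genes was higher, since BCAR1 was lost at log2 fold changes of 0.054, 0.057, 0.088 and 0.096. Against a minimum change of 1.2-fold, 1 was higher and 2 lower (BCAR1 0.094, CBL -0.11 and SHC1 -0.19 lost). Of all genes, 1394 were higher and 1835 lower. Of the adaptors, 0 were higher and 6 lower, of the other SRC substrates 10 and 5, and of the SRC regulators 2 were lower. That test asks for a larger change. CBL was also lost with no low-count filter (-0.087), the DESeq2 test (-0.11) and the unstranded counts (-0.10), and CTTN passed with upper quartile factors (-0.077). The cause was not tested. PAG1 was at -0.021 with upper quartile factors and -0.018 with library size only. CTNND1 was at 0.0011 with DESeq2 size factors and with the DESeq2 test, 0.025 with no filter and 0.0047 with the unstranded counts.

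Without 1 library at a time, the number of the 10 genes higher was 1 to 2, and the log2 fold change was 0.062 to 0.15 for BCAR1, -0.14 to -0.085 for CBL, -0.013 to 0.068 for PAG1 and -0.024 to 0.027 for CTNND1. Libraries with the same replicate number did not deviate together (correlations across genes of -0.10, 0.03 and -0.02). No pairing by number was thus seen, but these values cannot show whether such libraries were cultured or prepared together. With the replicate block, CBL was lost at -0.11 (adjusted p = 0.057), and no other call of the 10 genes changed.

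Without division by exon length, the difference in family share, Yes T348I minus Yes WT, was 0.772 percentage points for PTK2 and -0.772 for PTK2B, -0.696 for SHC1 and -8.57 for CTNND1, against 1.30, -1.30, 0.320 and -7.76 with it. PTK2B, with 53 to 91 counts, is the gene of the 10 whose depth limits it most.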
